A study of Mus musculus with 2 samples.

Results

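The genes that move arginine into a cell and turn it into nitric oxide and creatine, and those that make and break down polyamines, were followed as 8 genes: Nos2, Ass1, Slc7a2, Odc1, Srm, Sms, Sat1 and Gatm. They were picked by symbol, each on 1 row, from 31253 genes. Cd45+ cells had been sorted from subcutaneous tumors grown from the mouse melanoma line B16-F10, 10 days after injection of 200000 cells into female C57BL/6J mice aged 8 to 10 weeks, either Irg1+/+ or with Irg1 deleted in the whole body (Irg1-/-). Tumor pieces of 100 mm3 from 3 mice of a genotype were pooled, 6000 cells were sorted, and 1 single-cell RNA library was made of each pool. Irg1 is the older name of Acod1, the enzyme that makes itaconate.

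Nitric oxide synthase 2 (Nos2, or iNOS), a textbook marker of inflammatory macrophage activation, makes nitric oxide and citrulline from arginine, and argininosuccinate synthase (Ass1) starts the rebuilding of arginine from citrulline. Ornithine decarboxylase (Odc1) turns ornithine, which cells can derive from arginine, into putrescine, the first polyamine. Spermidine synthase (Srm) and spermine synthase (Sms) build spermidine and spermine from it, and the acetyltransferase Sat1 starts the breakdown of both. Slc7a2 carries arginine into the cell, and Gatm spends it on creatine.

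In GRCm38, the build of the files, these protein-coding genes lie as follows, with start, end and strand. The arginine-using enzymes are Nos2 at chr11:78920787-78960254 (+) and Gatm at chr2:122594467-122611303 (-), with Ass1 at chr2:31470207-31520672 (+) and the transporter Slc7a2 at chr8:40862396-40922308 (+). The polyamine genes are Odc1 at chr12:17544794-17551505 (+), Srm at chr4:148591503-148594993 (+), Sms at chrX:157443855-157492287 (-) and Sat1 at chrX:155213132-155216449 (-).

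The libraries held 6408 cells with 43617546 unique molecular identifiers (UMIs, counted transcripts) from Irg1+/+ mice and 5896 cells with 36432067 UMIs in the library labelled Irg1-/-. With mitochondrial genes under 10% of UMIs, 6284 and 5794 cells were kept, at a median of 4528 and 4594.5 UMIs. From here on, the first value of a pair is that of the Irg1+/+ library. Ptprc, which encodes Cd45, was detected in 88.0% and 91.5% of kept cells. Levels are CPM (a gene's UMIs scaled to a total of 1e6) of the summed UMIs of a group of cells, from tags at the 3′ end, with the bounds of the exact Poisson 95% interval in parentheses. With 1 library of each genotype no test was possible, and all intervals cover counting error only.

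Acod1 itself was not lower in the library labelled Irg1-/-, at 87.8 (85.0, 90.7) and 108 (104, 111) CPM over all kept cells. It was highest in neutrophil-like cells, with 2900.3 and 1997 CPM. The sources used here do not say which part of the gene is deleted, so a 3′ tag does not check the label.

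Cells were assigned to types and states by marker genes, none of them among the 8, and each name below stands for cells like that type. Macrophages and monocytes numbered 2481 and 2238 cells. One of their 8 states, the Vegfa macrophage-like state, was gated on Vegfa, Mmp12, Spp1 and 7 further genes and held 445 and 232 cells. A further 251 and 178 cells, at a median of 1124 and 2066 UMIs, reached no state. They count among the other macrophages and monocytes when a state is compared with these. Between states, 367 and 336 cells lay near a boundary. Cells like T, NK or B cells, called lymphocytes below, numbered 1725 and 1463 and served as background for the myeloid genes, since free RNA gives UMIs in cells that do not make a transcript.

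**Figure D1:**
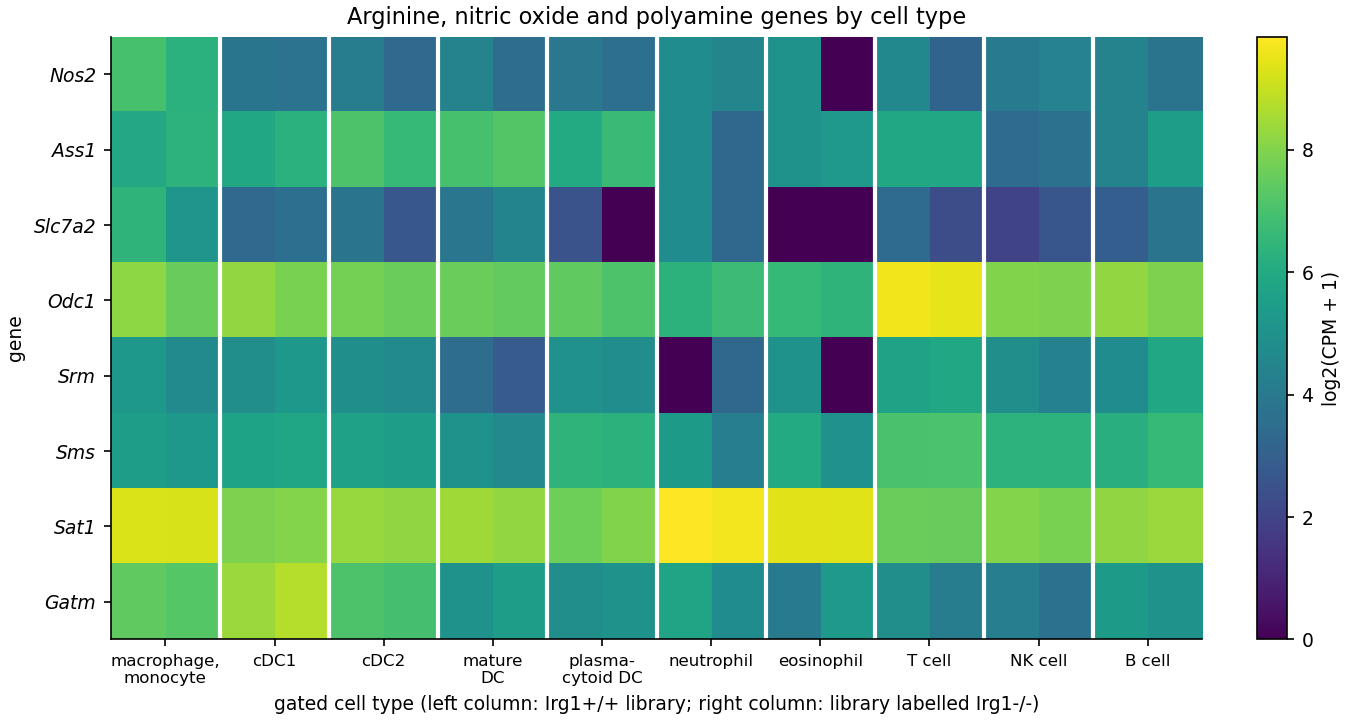
Level of the 8 genes in gated cell types, as log2(CPM + 1), in the Irg1+/+ library and the library labelled Irg1-/- side by side. Nos2 and Slc7a2 stand out in macrophage and monocyte cells, Odc1 in T cells and Gatm in cDC1.

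Nos2 was mainly a macrophage transcript. Macrophages and monocytes held 75.7% and 78.8% of its UMIs, with 45.5% and 45.6% of all UMIs. Their Nos2 level was 125 (120.1, 130.2) and 77.6 (73.3, 82.0) CPM, and that of lymphocytes 22.4 (19.6, 25.6) and 11.1 (8.82, 13.8) CPM. After each cell was thinned to 2000 UMIs, Nos2 was detected in 10.4% and 6.66% of macrophages and monocytes and in 3.82% and 2.25% of lymphocytes. Without thinning the shares were 19.0% and 11.4% against 9.10% and 3.69%, at median depths of 5602 and 5899 against 3310 and 2712 UMIs.

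Among the states Nos2 was highest in Vegfa macrophage-like cells in both libraries. It stood there at 509 (485, 533) and 510.0 (474, 547) CPM with overlapping intervals, and thinned to 2000 UMIs 34.2% and 31.2% of these cells had it. This state held 71.8% and 61.3% of the Nos2 UMIs of macrophages and monocytes, with 17.7% and 9.33% of all their UMIs. MHC class II macrophage-like cells, at 76.2 (67.8, 85.4) and 70.6 (63.4, 78.4) CPM, were also above lymphocytes in both libraries. Mgl2 macrophage-like cells, at 35.6 (28.0, 44.5) and 18.4 (10.1, 30.9) CPM, were above them in the Irg1+/+ library only. Mrc1 macrophage-like cells had 21.9 (17.9, 26.5) and 11.2 (7.13, 16.9) CPM and were not above lymphocytes. Ear2 macrophage-like cells differed between the libraries, with 50 and 10 UMIs in 44 and 53 cells, a log2 ratio of -2.73 (-3.93, -1.79), or -1.10 thinned.

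Slc7a2 was highest in the same state, at 246 (229.9, 264) and 133 (115, 153) CPM in Vegfa macrophage-like cells. Here the library labelled Irg1-/- was lower, and the intervals did not overlap, but the difference was smaller with thinned cells. Mgl2 macrophage-like cells had 104 (91.2, 119) and 65.7 (48.8, 86.6) CPM and lymphocytes 9.24 (7.44, 11.3) and 4.59 (3.16, 6.44) CPM.

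**Figure D2:**
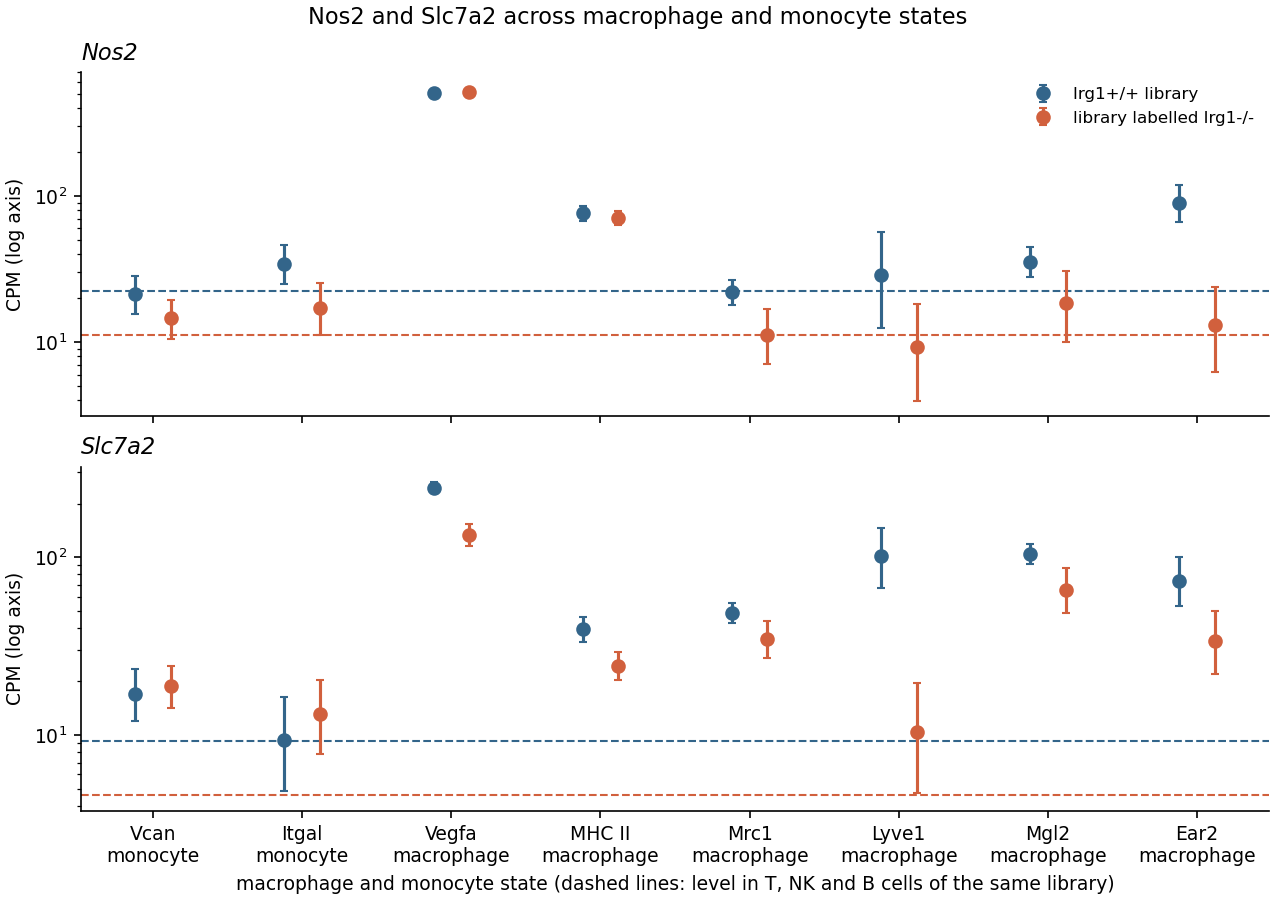
Level of Nos2 and Slc7a2 in CPM (log axis) in 8 macrophage and monocyte states with exact Poisson 95% intervals, for the Irg1+/+ library (blue) and the library labelled Irg1-/- (orange), with the level in T, NK and B cells as dashed lines. Both genes are highest in the Vegfa macrophage state in both libraries.

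To measure how far the Vegfa macrophage-like state stood apart, it was compared with the other macrophages and monocytes of its own library. The log2 ratio was 3.57 (3.44, 3.70) and 3.95 (3.78, 4.11) for Nos2 and 2.34 (2.20, 2.48) and 2.41 (2.15, 2.66) for Slc7a2. With clusters it was 2.91 and 2.94 for Nos2. These 2 of 8 genes, the same in both libraries, were at least 2-fold higher there, as were 3.76% and 5.42% of all genes with at least 20 UMIs. In the library labelled Irg1-/- the count was 4 with clusters, with thinned cells, with TMM or DESeq2 scaling, or without cells near a boundary. The median log2 ratio was 0.44 and 0.63 for the 8 genes and -0.18 and -0.12 for all genes.

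None of the polyamine members reached 2-fold with the gates used. Odc1 had a log2 ratio of 0.57 (0.48, 0.66) and 0.97 (0.83, 1.11) and Sat1 of 0.70 (0.64, 0.76) and 0.93 (0.85, 1.00), both higher in Vegfa macrophage-like cells. In the library labelled Irg1-/- Odc1 and Sat1 were the further genes past 2-fold in the counts of 4, at 1.04 and 1.04 with clusters. Srm gave -0.87 (-1.25, -0.53) and -0.095 (-0.66, 0.39) and Sms 0.024 (-0.24, 0.27) and 0.34 (-0.054, 0.69). Gatm was lower, at -1.20 (-1.38, -1.02) and -0.30 (-0.53, -0.086), but in the library labelled Irg1-/- came to 0.16 with stricter gates and 0.12 thinned. It was the 1 member at least 2-fold lower in the Irg1+/+ library, against 0 in the other (background 7.48% and 8.29%). Ass1 gave 0.32 (0.11, 0.52) and -0.29 (-0.61, -0.0039), of opposite sign in the libraries, but -0.035 with clusters in the Irg1+/+ library.

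**Figure D3:**
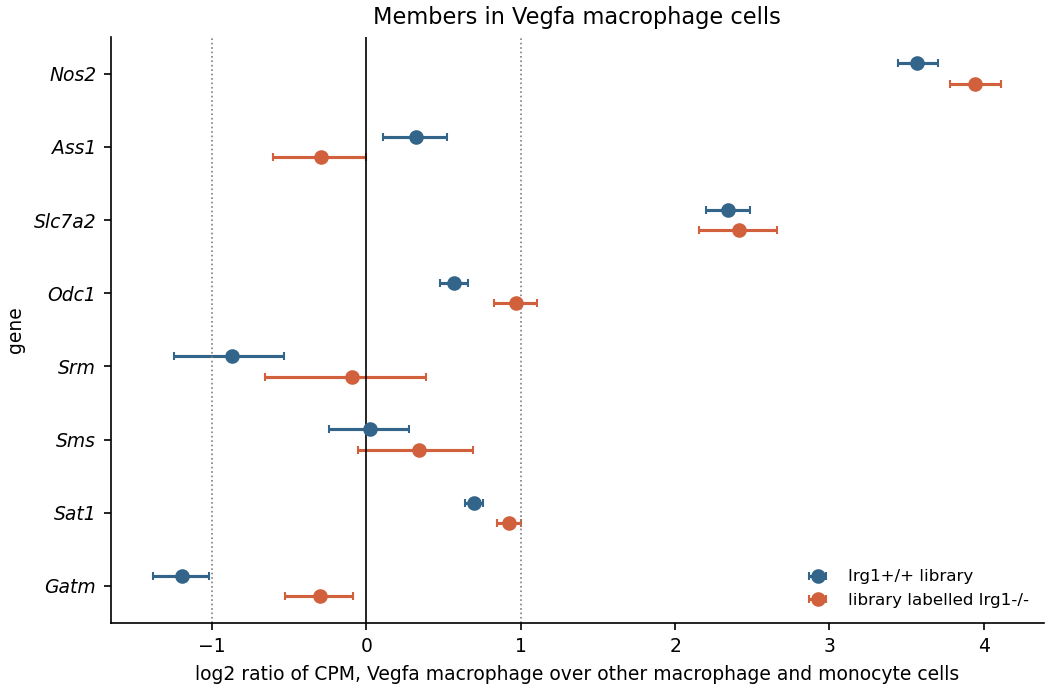
Log2 ratio of CPM in Vegfa macrophage cells over the other macrophage and monocyte cells for the 8 genes, with 95% intervals, in the Irg1+/+ library (blue) and the library labelled Irg1-/- (orange). Nos2 and Slc7a2 lie beyond the dotted line of a 2-fold increase in both libraries.

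Mrc1 macrophage-like and Vcan monocyte-like cells had other profiles. In Mrc1 macrophage-like cells 2 members were at least 2-fold above the other macrophages and monocytes, Gatm at 1.15 (1.04, 1.25) and 1.06 (0.92, 1.20) and Srm at 1.07 (0.85, 1.29) and 1.21 (0.86, 1.53), beside 7.24% and 5.61% of all genes. Lower by as much were 2, namely Ass1 at -1.51 (-1.80, -1.25) and -1.09 (-1.44, -0.78) and Nos2 at -2.86 (-3.16, -2.58) and -2.92 (-3.62, -2.36), beside 5.03% and 4.61%. In Vcan monocyte-like cells 5 of 8 were at least 2-fold lower in each library (Gatm, Nos2, Odc1, Slc7a2 and Srm) and 0 higher, beside 13.2% and 11.7% lower and 4.22% and 2.38% higher among all genes.

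Markers of other cells were read in the Vegfa macrophage-like state. All 10 T cell markers were detected, led by Trbc2, at a sum of 549 and 407 CPM, beside 554 and 409.6 CPM over all macrophages and monocytes. All 7 melanocyte markers were detected, led by Dct, at 190.5 and 67.2 CPM, beside 188 and 77.8 CPM. Of 8 neutrophil markers 7 were detected, led by Trem1, at 215 and 290.3 CPM, beside 203 and 286 CPM, and the defining marker Ly6g was at 0. These sums in the Vegfa state were therefore near those of macrophages and monocytes as a whole.

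A further 48 genes of arginine, nitric oxide, creatine and polyamine metabolism were read in the same comparison. At least 2-fold higher in Vegfa macrophage-like cells were 2 of 36 with enough UMIs in the Irg1+/+ library and 3 of 33 in the other, and 2 and 1 were lower, beside 3.76% and 5.42% higher and 7.48% and 8.29% lower among all genes, so the counts were near the background. Smox, which oxidizes spermine back to spermidine, had 692 and 699.7 CPM there and 265 and 245 CPM in the other macrophages and monocytes, a log2 ratio of 1.38 (1.31, 1.46) and 1.51 (1.41, 1.61). Slc6a8, the creatine transporter, had 70.1 and 80.6 CPM against 28.0 and 18.8 CPM, or 1.32 (1.09, 1.55) and 2.11 (1.78, 2.42). These were the genes of the lists that passed in both libraries. The third gene higher in the library labelled Irg1-/- was Ddah2, which degrades methylarginine inhibitors of nitric oxide synthases, at 0.020 (-1.48, 1.14) and 1.19 (-0.67, 2.51), with both intervals including 0. The lower ones were Mtap and Spr, the last enzyme of tetrahydrobiopterin synthesis, in the Irg1+/+ library and Paox, a polyamine oxidase, in the other. Spr gave -1.0033 (-1.46, -0.60) and -0.65 (-1.31, -0.11) and Paox -0.53 (-1.04, -0.070) and -1.35 (-2.49, -0.51). Ddah2, Spr and Paox, and Azin2 and Nos1 named later, were chosen after their values were seen.

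Of the other genes among the 2 most abundant of each list, given next, Mtap in the Irg1+/+ library alone passed 2-fold. Among transporters the log2 ratio was 0.37 (0.31, 0.43) and 0.50 (0.42, 0.57) for Slc3a2, the shared heavy chain of several amino acid transporters, and -0.60 (-0.90, -0.32) and 0.12 (-0.30, 0.50) for Slc7a1, another arginine transporter. Oat, which interconverts ornithine and glutamate semialdehyde, gave -0.21 (-0.42, -0.0086) and -0.31 (-0.66, 0.013), and Asl, the urea cycle step after Ass1, -0.19 (-0.51, 0.11) and 0.0045 (-0.44, 0.40). Of the genes of tetrahydrobiopterin, the cofactor of Nos2, Gch1 gave 0.35 (0.12, 0.56) and 0.16 (-0.18, 0.46), Pts -0.78 (-1.15, -0.45) and -0.80 (-1.33, -0.34) and Qdpr -0.35 (-0.67, -0.063) and -0.26 (-0.80, 0.21). The creatine kinase Ckb gave -0.78 (-1.02, -0.56) and -0.74 (-1.07, -0.45). Azin1, which protects Odc1 from its antizyme, gave 0.65 (0.56, 0.74) and 0.71 (0.59, 0.84), and Oaz1, the antizyme, -0.20 (-0.29, -0.11) and -0.31 (-0.45, -0.19). Atp13a3, a polyamine transporter, gave -0.46 (-0.65, -0.29) and -0.19 (-0.46, 0.052). Eif5a, the carrier of spermidine-derived hypusine, gave -0.56 (-0.62, -0.50) and -0.64 (-0.74, -0.55), and Mtap, which salvages a by-product of polyamine synthesis, -1.26 (-1.57, -0.97) and -0.65 (-1.14, -0.23). Otc, Cps1 and Agmat had 0 UMIs in macrophages and monocytes, where a floor of 3 UMIs would be 0.157 and 0.186 CPM.

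Single cells varied widely within the state. The median Vegfa macrophage-like cell had 0 and 0 Nos2 UMIs, and the highest had 85 and 78. The 10% of these cells with the most Nos2 held 67.9% and 70.2% of its UMIs in the state, and the 10% with the most Slc7a2 held 69.9% and 71.5%. Over all macrophages and monocytes, where states differ too, the shares were 90.7% and 97.4% for Nos2 and 83.8% and 94.7% for Slc7a2.

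Across 16 groups of cells in both libraries (32 points), the genes whose log2 CPM was most like Nos2 among 10570 compared were Zfand2a (Pearson's r of 0.79), Samd8 (0.78), Mgarp (0.77), Plau (0.73) and Sap30 (0.73). Gate markers were left out of this ranking. Slc7a2 had an r of 0.68. The points share libraries and depth, so these values only describe.

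Ass1 was spread differently from Nos2. It was at 127 (113, 142) and 149 (133, 166) CPM in mature DC-like and 137 (118, 157) and 95.4 (83.0, 109) CPM in cDC2-like cells, above the 61.1 (57.7, 64.7) and 81.2 (76.9, 85.7) CPM of macrophages and monocytes with the exception of cDC2-like cells in the library labelled Irg1-/-, whose interval overlapped. In cDC1-like cells it was at 58.1 (49.5, 67.8) and 76.6 (64.0, 90.9) CPM and in plasmacytoid DC-like cells at 64.2 (42.3, 93.5) and 101 (76.2, 132) CPM. Among macrophage states it was highest in MHC class II macrophage-like cells, at 94.8 (85.5, 105) and 120.2 (111, 130.2) CPM, and Mrc1 macrophage-like cells had 25.4 (21.1, 30.4) and 40.6 (32.3, 50.3) CPM. T cells also carried it, at 112 (91.1, 137) and 120.3 (93.4, 153) CPM in Cd4 and 37.7 (29.3, 47.8) and 52.2 (38.3, 69.4) CPM in Cd8 T cell-like cells outside the cell cycle. NK cell-like cells had 9.83 (4.71, 18.1) and 11.7 (7.30, 17.6) CPM.

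Vcan monocyte-like cells were split by their interferon-response genes. Ass1 was at 101 and 90.0 CPM in the high and 35.5 and 67.2 CPM in the low cells, a log2 ratio of 1.49 (0.96, 2.07) and 0.42 (0.041, 0.81). Nos2 gave 1.39 (0.47, 2.45) and 1.23 (0.28, 2.32), from low levels of 32.5 and 20.5 CPM in the high cells, whose interval overlapped that of lymphocytes in the Irg1+/+ library. Acod1 gave 3.42 (2.89, 4.03) and 2.00 (1.64, 2.38). At least 1.5-fold higher were 3 of 8 members (Ass1, Nos2 and Slc7a2) and 2 (Gatm and Nos2), beside 7.98% and 6.87% of all genes, and 0 and 1 (Srm) were lower, beside 12.3% and 12.7%.

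Among whole gated types Gatm was highest in cDC1-like cells, at 330.4 (309, 352) and 426 (395, 458) CPM, and 73.6% and 84.1% of them had a UMI. Lymphocytes had 27.2 (24.0, 30.7) and 15.8 (13.1, 19.0) CPM, with a UMI in 11.5% and 6.43%, at median depths of 10003.5 and 8861 in cDC1-like cells and 3310 and 2712 UMIs in lymphocytes. Mrc1 macrophage-like cells had 292 (277, 308) and 275 (253, 299) CPM and Vcan monocyte-like cells 48.8 (39.9, 59.2) and 39.6 (32.8, 47.4) CPM. Cycling macrophages and monocytes had 338 (311, 367) and 381 (339, 426) CPM, with an interval that overlapped that of cDC1-like cells, and the others 156 and 138 CPM, a log2 ratio of 1.12 (0.99, 1.25) and 1.47 (1.29, 1.64).

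Odc1 and Sms were higher in T cells than in macrophages. Odc1 was at 804 (786, 824) and 715 (692, 739) CPM in T cell-like cells and at 288 (280.4, 296) and 188 (181, 195) CPM in macrophages and monocytes. Sms was at 131 (123, 138) and 133 (123, 144) CPM against 45.0 (42.1, 48.1) and 37.4 (34.5, 40.6) CPM. Srm was at 49.6 (45.1, 54.5) and 57.5 (51.1, 64.4) CPM against 37.1 (34.4, 39.9) and 25.02 (22.6, 27.6) CPM, but T cell-like cells outside the cell cycle, 1033 and 557 of 1372 and 778, had 23.3 (18.8, 28.5) and 32.1 (24.6, 41.2) CPM, below the macrophage level in the Irg1+/+ library. Mrc1 macrophage-like cells had 61.2 (54.4, 68.6) and 49.4 (40.2, 60.0) CPM of Srm.

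The promoter table used (RefSeq, GRCm38.p6) has entries for 5 of the 8 genes: Ass1, Gatm, Odc1, Sat1 and Sms. The 250 bases before the listed start of Odc1 (chr12:17544623-17544872, + strand) and of Sms (chrX:157492288-157492537, - strand, 1 of 2 listed starts) are shown, 5′ to 3′, because both genes were higher in T cell-like cells. The listed start of Odc1 lies downstream of the gene start given above, 17544794, so its window overlaps the gene as placed there. Capitals mark CACGTG, an E-box that reads alike on both strands.
Odc1: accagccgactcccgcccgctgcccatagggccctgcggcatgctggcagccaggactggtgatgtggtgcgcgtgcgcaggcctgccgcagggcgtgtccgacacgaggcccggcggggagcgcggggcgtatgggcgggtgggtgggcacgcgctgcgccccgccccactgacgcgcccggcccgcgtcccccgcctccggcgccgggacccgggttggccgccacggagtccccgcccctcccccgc
Sms: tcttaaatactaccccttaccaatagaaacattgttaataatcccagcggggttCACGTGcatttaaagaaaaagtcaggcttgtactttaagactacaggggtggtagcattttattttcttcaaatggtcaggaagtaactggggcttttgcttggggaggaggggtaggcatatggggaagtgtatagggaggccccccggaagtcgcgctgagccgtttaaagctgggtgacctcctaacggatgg
The Sms window has CACGTG 1 time, 196 bases before the start, and the window of its other listed start and that of Odc1 have 0 and 0 matches. Among the other members with an entry, the Ass1 window has it 1 time, 36 bases before the listed start, and those of Gatm and Sat1 have 0 and 0. The Ass1 and Gatm windows also overlap their genes as placed above, and the Ass1 match lies in that overlap. Of 32851 promoters in the table, 6.02% hold it in a window of this length. A match describes the letters only.

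Odc1 was highest in Cd4 T cell-like cells. Outside the cell cycle it was at 1355 (1279, 1434) and 1159 (1072, 1251) CPM in Cd4 and 425 (395, 456) and 528 (482, 578) CPM in Cd8 cells, a log2 ratio of Cd8 over Cd4 of -1.67 (-1.81, -1.54) and -1.13 (-1.31, -0.96). Srm had the opposite sign, at 1.47 (0.55, 2.66) and 1.07 (0.12, 2.23). Sms gave 0.42 (0.031, 0.83) and 0.39 (-0.11, 0.93), and its second interval included 0.

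Srm and Sms were higher in cycling T cells, and Odc1 over all T cells was not. Srm was at 72.6 (65.0, 80.7) and 72.7 (63.7, 82.7) CPM in cycling and 23.3 (18.8, 28.5) and 32.1 (24.6, 41.2) CPM in other T cell-like cells, a log2 ratio of 1.64 (1.31, 1.99) and 1.17 (0.77, 1.61). Sms gave 0.60 (0.42, 0.78) and 0.68 (0.43, 0.93) and Odc1 -0.086 (-0.15, -0.018) and -0.34 (-0.43, -0.24). Within Cd8 T cell-like cells Odc1 gave 0.55 (0.43, 0.68) and 0.15 (-0.0073, 0.30), positive where the value over all T cells was negative. Cycling cells were deeper, with a median of 12253 and 12841 UMIs against 3066 and 2443.

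At least 1.5-fold higher in cycling T cell-like cells were 2 of 8 members tested (Sms and Srm) and 2 (the same), beside 14.1% and 15.5% of all genes. Lower were 1 (Ass1) and 2 (Ass1 and Sat1), beside 19.7% and 20.5%.

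**Figure D4:**
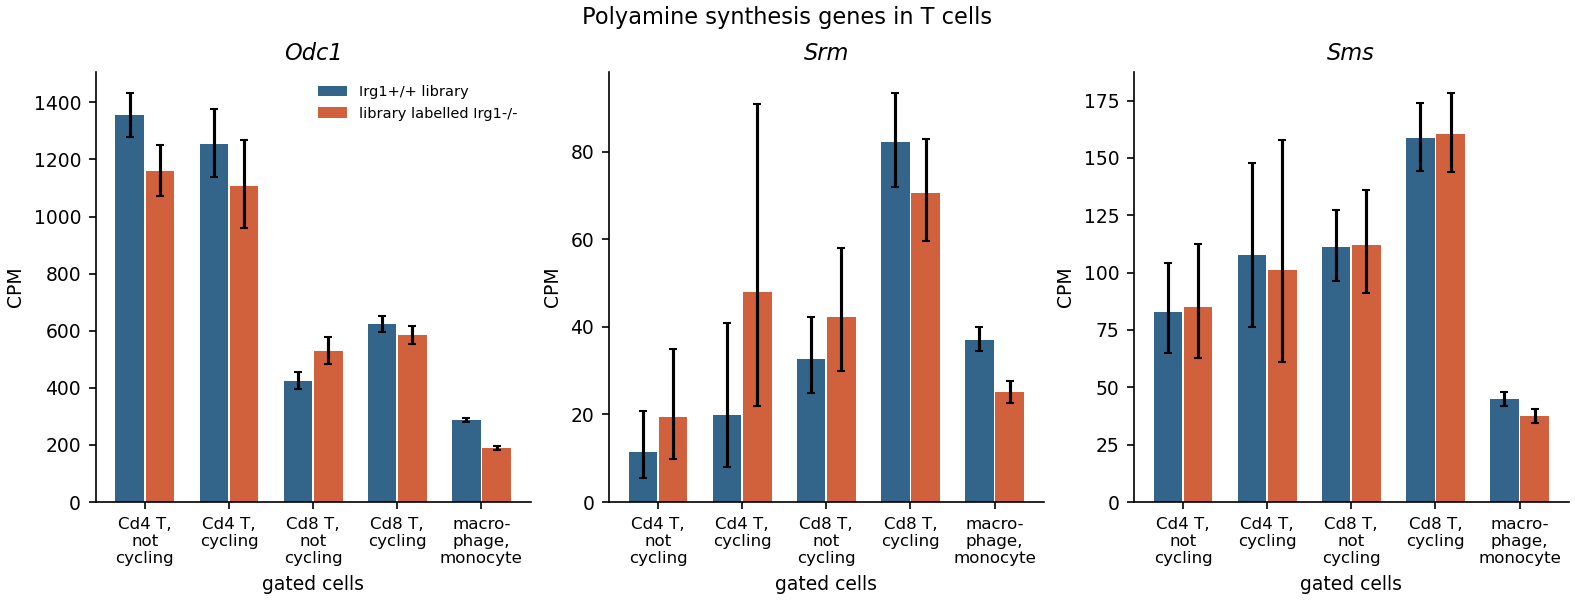
Level of Odc1, Srm and Sms in CPM in T cells with Cd4 or Cd8, cycling or not, and in macrophage and monocyte cells, with exact Poisson 95% intervals, for the Irg1+/+ library (blue) and the library labelled Irg1-/- (orange). Odc1 is highest in Cd4 T cells, and Srm and Sms are highest in cycling Cd8 T cells.

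Sat1, which starts polyamine breakdown, was higher in macrophages and monocytes, at 628 and 607 CPM, than in lymphocytes, at 206 and 202 CPM. Not all myeloid types were as high, since cDC1-like cells had 240 and 259 CPM. Plasmacytoid DC-like cells had 202 and 255 CPM, which was not above lymphocytes in the Irg1+/+ library. Among lymphocytes, B cell-like cells had 300.1 and 329 CPM. Vegfa macrophage-like cells had 917 (885, 950.3) and 1063 (1011, 1116) CPM, Itgal monocyte-like cells 841 (791, 893) and 947 (897, 998) CPM and neutrophil-like cells 922 (718, 1167) and 811 (698, 937) CPM. The neutrophil interval overlapped the other 2 in the Irg1+/+ library. T cell-like cells had 198 (188, 207) and 188 (177, 201) CPM, and the cycling ones were lower by a log2 ratio of -0.55 (-0.69, -0.41) and -0.65 (-0.83, -0.46).

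The same genes were then compared between the libraries, as log2 ratios of the library labelled Irg1-/- over the Irg1+/+ library. Over all macrophages and monocytes Nos2 gave -0.69 (-0.79, -0.59), Slc7a2 -1.25 (-1.39, -1.11) and Odc1 -0.62 (-0.68, -0.55). Srm gave -0.57 (-0.75, -0.39), Sms -0.27 (-0.42, -0.11), Gatm -0.20 (-0.27, -0.12) and Sat1 -0.049 (-0.088, -0.011). Ass1 alone of the 8 was higher, at 0.41 (0.29, 0.52). At least 1.5-fold lower were 3 (Nos2, Odc1 and Slc7a2), beside 7.58% of all genes, and 0 were higher, beside 4.59%. Over the alternatives this count ran from 2, with clusters, stricter gates, thinned cells or TMM scaling, to 4, with Srm added when cells near a boundary were left out. The median was -0.42 for the 8 genes and -0.052 for all genes. Of 37 pathway genes tested 2 were lower (Azin2 with 24 and 9 UMIs and Nos1 with 25 and 12 UMIs) and 0 higher.

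Within single states the Nos2 ratio varied. In Vegfa macrophage-like cells it gave 0.0042 (-0.12, 0.13) and in MHC class II macrophage-like cells -0.11 (-0.34, 0.12), both intervals including 0, but -0.35 and -0.57 with clusters. It was lower in the library labelled Irg1-/- in Mgl2 macrophage-like cells, at -0.91 (-1.89, -0.12), and in Mrc1 ones, at -0.94 (-1.68, -0.30). Itgal monocyte-like cells gave -0.99 (-1.77, -0.26). In that library these levels overlapped those of lymphocytes, whose own Nos2 ratio was -1.01 (-1.40, -0.64). Lymphocyte types did not share this ratio, which was -1.53 (-2.07, -1.06) in T cell-like and 0.29 (-0.56, 1.26) in NK cell-like cells. Their mix also differed, with 1372 and 778 T cell-like and 295 and 621 NK cell-like cells. Levels in Mrc1 cells were not above lymphocytes in either library. Over the alternatives the value ran from -2.62 to -0.15 in Mgl2, from -1.26 to -0.59 in Mrc1 and from -1.70 to -0.49 in Itgal cells. Weighted to the state shares of the Irg1+/+ library, Nos2 over all macrophages and monocytes came to -0.15 instead of -0.69, and at the shares of the other library to -0.24.

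The marker genes that gate the Vegfa state were themselves lower in the library labelled Irg1-/- in each of the 8 states. Their sum was 9536 and 8124 CPM in Vegfa, 2304 and 1606 CPM in Mrc1, 3574 and 2027 CPM in Mgl2 and 3318 and 1585 CPM in Ear2 macrophage-like cells. Fewer cells in the state and less of its transcripts per cell cannot be told apart, and the part of either in the values of the 8 genes was not tested. In Mrc1, Mgl2 and Ear2 macrophage-like cells this sum and Nos2 were both lower. Nos2 in Mrc1 cells was not above lymphocytes in either library. Lymphocytes themselves gave a Nos2 ratio of -1.01 (-1.40, -0.64), with T cell-like cells lower and the NK cell-like interval including 0. In Vegfa macrophage-like cells the sum was lower and the interval of the Nos2 ratio included 0 with the gates used.

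Slc7a2 and Odc1 were lower in most states. Slc7a2 was lower in Vegfa macrophage-like cells, at -0.88 (-1.12, -0.66), in MHC class II ones, at -0.67 (-1.03, -0.32), in Mrc1 ones, at -0.48 (-0.89, -0.10), in Ear2 ones, at -1.11 (-1.89, -0.38), and in the 26 and 79 Lyve1 ones, at -3.23 (-4.55, -2.16). It was smaller in size under some alternatives, at -0.26 thinned in Vegfa, -0.20 as a mean over cells in MHC class II and -1.72 thinned in Lyve1 cells. In Mgl2 macrophage-like cells it gave -0.66 (-1.14, -0.22), but 0.23 with stricter gates, while intervals in Vcan and Itgal monocyte-like cells included 0. Odc1 had a negative ratio in all 8 states, from -0.19 (-0.49, 0.11) in Itgal monocyte-like to -1.48 (-1.86, -1.10) in Lyve1 macrophage-like cells, but it came to 0.066 with clusters and 0.0080 with thinned cells in Vegfa and to 0.13 thinned in Ear2 macrophage-like cells. In Lyve1 cells Odc1 was at -0.81 thinned. At fixed Irg1+/+ state shares Slc7a2 came to -0.76, Odc1 to -0.36 and Ass1 to 0.28.

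The members past 1.5-fold were then counted in each state. Vegfa macrophage-like cells had 1 lower (Slc7a2) and 0 higher of 8, beside 7.79% and 6.25% of all genes. MHC class II macrophage-like cells had 1 (Slc7a2) and 0, beside 5.34% and 4.53%. Mrc1 macrophage-like cells had 1 (Nos2) and 1 (Ass1), beside 9.62% and 6.09%. Nos2 in these cells was not above lymphocytes in either library, and the Ass1 ratio turned negative with thinned cells. For Vcan monocyte-like cells the counts were 1 (Srm) and 0, beside 7.85% and 5.55%. The Srm ratio there was -0.64 (-1.35, 0.061), with an interval that included 0. For Itgal monocyte-like cells the counts were 1 (Nos2) and 0, beside 7.34% and 5.8%. Over the alternatives the lower count ran from 0 to 1 in Vegfa, where thinned cells had 0, from 0 to 2 in MHC class II, 1 to 2 in Mrc1, 0 to 2 in Vcan and 0 to 1 in Itgal cells. The higher count ran from 0 to 1 in Vegfa and Mrc1 and from 0 to 2 in Itgal cells.

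The Ear2, Mgl2 and Lyve1 states had more members lower with the gates used. In Ear2 macrophage-like cells 5 of 8 were lower (Nos2, Odc1, Slc7a2, Sms and Srm) and 0 higher, beside 10.1% and 9.45% of all genes. The interval of the Srm ratio there, -1.03 (-2.37, 0.20), included 0. In Mgl2 macrophage-like cells 4 of 8 were lower (Gatm, Nos2, Slc7a2 and Srm) and 0 higher, beside 12.2% and 10.4%. In Lyve1 macrophage-like cells 3 of 7 were lower (Odc1, Slc7a2 and Sms) and 1 (Gatm) was higher, beside 12.4% and 13.4%. Over the alternatives the lower count ran from 0 to 6 in Ear2, where thinned cells had 0, from 2 to 6 in Mgl2 and from 1 to 4 in Lyve1 cells, and the higher count reached 1 in Ear2 and Mgl2 cells.

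**Figure D5:**
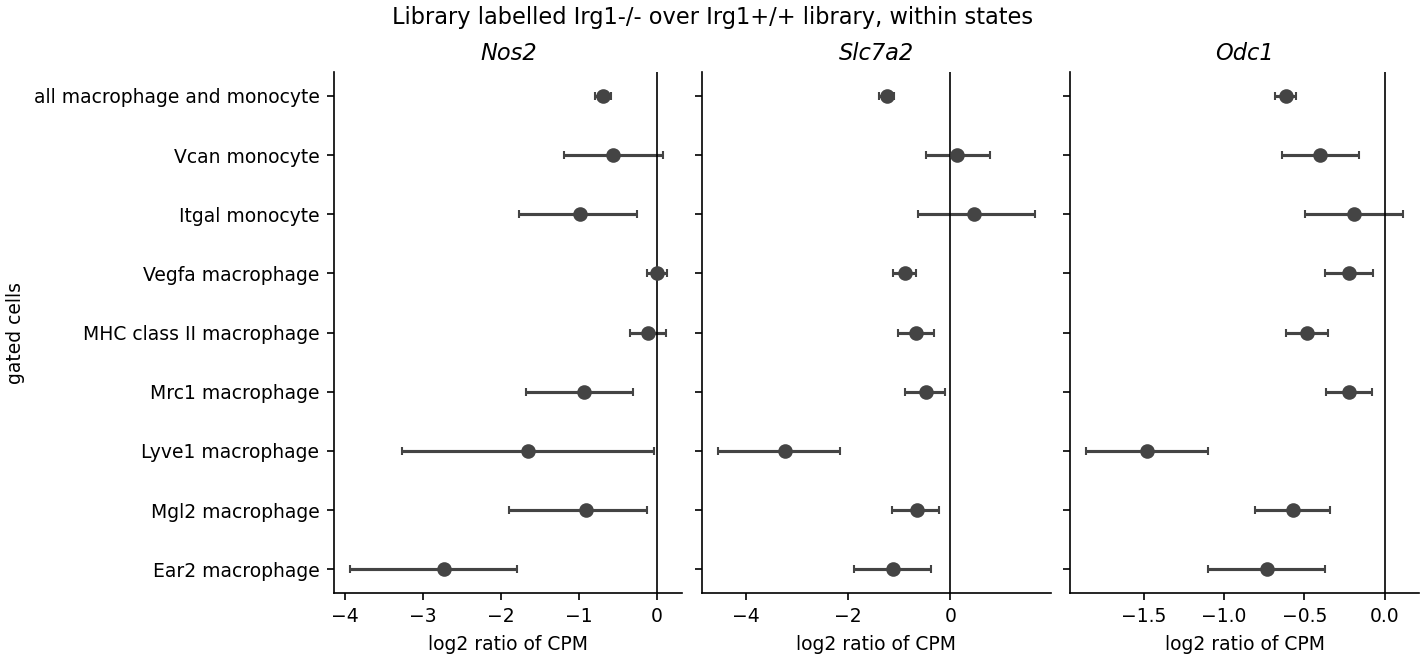
Log2 ratio of CPM, library labelled Irg1-/- over Irg1+/+ library, of Nos2, Slc7a2 and Odc1 over all macrophage and monocyte cells and in each of 8 states, with 95% intervals for counting error and a separate x axis in each panel. With the gates used Nos2 lies near 0 in the Vegfa and MHC class II states, and Odc1 lies left of 0 in all 8 states, although it was above 0 with thinned cells in the Vegfa and Ear2 states.

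In T cell-like cells 3 of 8 members tested (Gatm, Nos2 and Slc7a2) were at least 1.5-fold lower in the library labelled Irg1-/- and 0 higher, beside 6.38% and 3.13% of all genes. Nos2 was at 23.3 and 7.97 CPM in these cells and Slc7a2 at 10.0 and 4.08 CPM, levels used here as background, and the part of free RNA in the change was not tested. Odc1 gave -0.17 (-0.23, -0.11), Sms 0.030 (-0.11, 0.17) and Srm 0.21 (-0.0058, 0.43). In cDC1-like cells Gatm gave 0.37 (0.22, 0.51).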

How the data were processed

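Cells were captured on the BD Rhapsody platform, which tags the 3′ end of transcripts. Per the labels and methods, the authors processed reads with fastp, UMI-tools and STAR (Ensembl mouse genes, GRCm38) and deposited raw UMI counts per gene and cell, 1 matrix per library.

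Kept cells had more than 200 genes and mitochondrial genes under 10% of UMIs. Types were gated by marker UMIs per 10000, and states by the highest mean z score of a marker list, at least 0.3. Cells that passed several gates (471 and 460) or none (503 and 476) were set apart. Scrublet's own threshold called 0 cells, so doublets were kept and its top 5% were left out as an alternative. The libraries shared 36 barcodes.

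CPM left out mitochondrial genes. Log2 ratios had 0.5 UMIs added, with bounds from an exact binomial share. Genes with at least 20 UMIs were counted past 1.5-fold (libraries and splits) or 2-fold (states). Thinning to 2000 UMIs left out 1486 and 1292 shallower cells. Named genes were the members, Acod1, the 2 most abundant of each pathway list in either library, those past 2-fold in both libraries, and the 5 most like Nos2. Further genes of the rule, and the results that need them, are not reported here.

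Members and lists were chosen with earlier results of these data known, and gate thresholds after marker levels were seen. The ratios were run on simulated sums drawn with counting error alone, which checks the calculation but not the spread between cells or mice. Tools were matplotlib 3.10.9, scanpy 1.11.5, scipy 1.17.1, numpy 2.4.6, pandas 2.3.3, Python 3.11.15, R 4.3.3, and, for scaling factors only, edgeR 4.0.16 and DESeq2 1.42.0.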

Additional observations from a re-analysis of the deposited data

Results flagged for a closer look

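The ratio of the library labelled Irg1-/- over the Irg1+/+ library had opposite signs, with intervals that excluded 0, in different states for 2 genes, among states with at least 40 cells in each library. On the log2 scale Sat1 gave 0.21 in Vegfa and -0.18 in Mrc1 macrophage-like cells, and Gatm 0.58 in Vegfa and -0.79 in Mgl2 macrophage-like cells. With clusters Sat1 came to 0.13 in Mrc1 and Gatm to 0.075 in Vegfa cells. In the smaller Lyve1 state Gatm gave 1.71 (1.04, 2.53). These differences between states were not tested, since each genotype is 1 library.

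Cells set apart from the comparisons also held Nos2 above the lymphocyte level of their library. Cells that passed several gates had 72.9 and 38.0 CPM of Nos2, and 188 of them passed both the macrophage and monocyte gate and the T cell gate. Cells that passed no gate had 117 and 24.9 CPM of Nos2.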

How the results depend on the processing

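No paired analysis was possible because each genotype is 1 library. In the Vegfa state the log2 ratio of Nos2 was 2.91 with clusters, 3.30 with stricter gates, 3.31 as a mean over cells and 3.73 with DESeq2 factors for Irg1+/+, and 2.94 with clusters, 3.58 with stricter gates, 3.65 thinned and 3.72 as a mean over cells in the other. Between the libraries, Nos2 gave -0.84 with clusters, -0.57 with stricter gates and -0.79 thinned. All of these kept their direction. Members at least 1.5-fold lower ran from 2 to 4, and those at least 2-fold higher in the Vegfa state of the library labelled Irg1-/- 4 in place of 2 with clusters, thinned cells, TMM, DESeq2 factors or cells near a boundary left out. By state, lower counts ran from 0 to 2 in the Vegfa, MHC class II, Mrc1, Vcan and Itgal states, from 0 to 6 in Ear2, 2 to 6 in Mgl2 and 1 to 4 in Lyve1 cells, and higher counts from 0 to 2.

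The ratios recomputed were those of the Vegfa state, of the libraries overall and by state, and of some types over macrophages. Of these, values whose interval excluded 0 that changed sign were Ass1 in the Vegfa state of Irg1+/+ (-0.035 with clusters) and Gatm in that of the library labelled Irg1-/- (0.16 with stricter gates, 0.12 thinned). Between the libraries these were Slc7a2 in Mgl2 (0.23 with stricter gates) and Odc1 in Vegfa (0.066 with clusters, 0.0080 thinned) and Ear2 macrophage-like cells (0.13 thinned), Ass1 in MHC class II (-0.14 with clusters) and Mrc1 (-0.84 thinned), Sat1 in Itgal (-0.014) and Mrc1 (0.13) with clusters, and Gatm in Itgal (-0.32) and MHC class II (0.23) with clusters and in Ear2 (0.77 thinned). Values whose interval included 0 also changed sign, among them Srm in the Vegfa state of the library labelled Irg1-/- (up to 0.24) and, between the libraries, Nos2 in Vegfa (down to -0.35) and MHC class II (up to 0.19) and Slc7a2 in Vcan (down to -1.33) and Itgal cells (down to -0.030). The cause was not tested. Clusters gave no value for the Mgl2, Ear2 and Lyve1 states. TMM factors were 1.21 and 1.18 for T cells and 0.960 and 0.933 for macrophages and monocytes, which shifts levels between them. Leaving out shared barcodes or cells near a boundary was chosen after seeing the data.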
